A study of Mus musculus with 12 samples.

Results

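The 10 matrix-binding integrin genes described here are Itga1, Itga2, Itga11, Itga3, Itga6, Itga5, Itgav, Itgb1, Itgb3 and Itgb5, out of 57186 genes in the table of counts. They were taken by gene symbol, as a list drawn up with earlier results of these data known, and all 10 were found and passed the filter on low counts. Messenger RNA was measured in 12 tumours that 4T1 cells, from a mouse mammary carcinoma that serves to model triple-negative breast cancer, formed in mice. In 6 tumours (Tn) Cosmc (C1galt1c1) had been silenced in the 4T1 cells with CRISPR/Cas9. Cosmc is the chaperone that the core 1 O-glycan synthase needs, and cells without it display the truncated Tn antigen. The other 6 tumours (WT) grew from the parental 4T1 cells. The labels give 6 biological replicates per group from tumours of different sizes, and they do not say whether the Tn cells were 1 clone or a pool. Host strain and age were not given in the sources used here.

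Integrins are receptors made of 1 alpha and 1 beta subunit that hold cells to the extracellular matrix and signal across the membrane. The alpha subunit largely sets the ligand: alpha 1, alpha 2 and alpha 11 bind collagens, alpha 3 and alpha 6 bind laminins, and alpha 5 and alpha v bind fibronectin, vitronectin and other proteins through the RGD motif. Beta 1 is the partner of all of these alpha chains, while alpha v also pairs with beta 3 and beta 5. In mammary epithelium, laminin-binding integrins anchor the cells to the basement membrane, and in stroma collagen and fibronectin receptors serve fibroblasts and vessels.

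Whole tumour tissue was sequenced, so each value sums carcinoma and host cells, and fewer cells of a type and less RNA per cell cannot be told apart. Between 113575859 and 156880766 counts were obtained per tumour. C1galt1c1 stood at 11.3 ± 0.775 CPM (the usual scaling of counts to library size, here with TMM factors) in Tn tumours and 19.6 ± 3.05 CPM in WT tumours (SD, n = 6 each), with no overlap. Markers of host cells differed between the groups. Rose and fell are calls of the edgeR test given below, which 19.5% and 17.4% of all genes tested received. The 8 T cell markers summed to 46.8 to 475 CPM in Tn tumours and 8.48 to 23.7 CPM in WT tumours, and all 8 rose. The 8 macrophage markers summed to 1174 to 3542 CPM in Tn tumours and 769 to 1188 CPM in WT tumours, and 5 rose. Of 8 endothelial markers 7 fell, with sums of 199.9 to 389 CPM in Tn tumours and 296 to 530.5 CPM in WT tumours. Of 8 fibroblast markers 7 fell and 1, Pdgfra, rose, with sums of 308 to 452 CPM in Tn tumours and 366 to 747 CPM in WT tumours. Of 8 pericyte and smooth muscle markers 6 fell, with sums of 115 to 318 CPM in Tn tumours and 317 to 608 CPM in WT tumours. For the mammary tumour epithelium, 3 of 8 markers fell and sums were 1999 to 3410 CPM in Tn tumours and 2199 to 4586 CPM in WT tumours. Single tumours stood out in other marker lists. Keratinocyte markers summed to 3402 CPM in Tn tumour 6 (Tn median 123 CPM). B cell markers summed to 1456 CPM in Tn tumour 4 (Tn median 42.7 CPM), which also held the highest T cell sum. Adipocyte markers summed to 2440 CPM in WT tumour 6 (WT median 593 CPM). No marker in these lists was at 0, and the part of cell composition in the integrin results was not tested.

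The stretches just upstream of 4 members are shown first, because these genes set the frame of what follows. Itga1 rose, Itga2 lies beside it on the same strand of chromosome 13 without passing the test, Itga5 fell, and Itgb1 encodes the shared partner. Each is the 250 bases before the start of a RefSeq gene (table build GRCm38.p6), read 5′ to 3′ on the strand of the gene and matched once to GRCm39. Capitals mark matches, on either strand, to GGGCGG, a core of Sp factor sites, or to GGAATG, a core of TEAD sites.
Itga1, chr13:115238501-115238750, minus strand: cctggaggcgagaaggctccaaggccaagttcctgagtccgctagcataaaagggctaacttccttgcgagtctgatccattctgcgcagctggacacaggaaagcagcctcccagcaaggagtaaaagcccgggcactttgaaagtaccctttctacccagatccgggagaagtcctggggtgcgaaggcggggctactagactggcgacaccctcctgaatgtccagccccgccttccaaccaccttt
Itga2, chr13:115068637-115068886, minus strand: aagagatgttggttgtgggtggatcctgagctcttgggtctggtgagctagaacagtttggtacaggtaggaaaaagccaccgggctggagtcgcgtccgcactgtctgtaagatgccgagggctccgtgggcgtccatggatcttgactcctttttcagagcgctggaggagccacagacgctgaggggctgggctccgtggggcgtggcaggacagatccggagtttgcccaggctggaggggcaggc
Itga5, chr15:103275219-103275468, minus strand: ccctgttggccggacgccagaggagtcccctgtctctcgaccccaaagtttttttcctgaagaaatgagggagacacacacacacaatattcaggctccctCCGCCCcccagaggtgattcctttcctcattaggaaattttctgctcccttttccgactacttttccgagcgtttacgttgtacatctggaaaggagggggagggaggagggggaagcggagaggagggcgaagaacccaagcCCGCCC
Itgb1, chr8:129411885-129412134, plus strand: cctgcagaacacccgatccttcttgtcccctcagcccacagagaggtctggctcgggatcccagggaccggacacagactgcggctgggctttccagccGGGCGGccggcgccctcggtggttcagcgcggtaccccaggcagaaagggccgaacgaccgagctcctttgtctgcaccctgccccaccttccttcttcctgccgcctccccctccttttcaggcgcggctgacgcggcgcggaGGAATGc

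The Itga1 and Itga2 windows held no match to either of these. They also held none to the AP-1 motif TGANTCA, to CAGGTG, which is an E-box of Snail and Zeb factors, or to the TATA box TATAAA. Itga5 held 2 matches to GGGCGG, and Itgb1 held 1 to GGGCGG and 1 to GGAATG. Among 32851 windows of the same length and position, 32.7% held the Sp core, 12.6% the TEAD core, 6.7% the AP-1 motif, 17.2% the E-box and 12.4% the TATA box. RefSeq windows were found for 8 of the 10 members. A match describes letters and does not show that a factor binds.

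Of the 10 members, 5 fell (Itga11, Itga5, Itga6, Itgav and Itgb3), 1 rose (Itga1) and 4 did not pass the test (Itga3, Itga2, Itgb1 and Itgb5). Calls are those of edgeR's quasi-likelihood test at a Benjamini-Hochberg adjusted p under 0.05 over 19255 genes. Among all those genes 17.4% fell and 19.5% rose. In 5 members every Tn tumour lay below every WT tumour, as in 8.35% of all genes tested, and in 1 every Tn tumour lay above every WT tumour, as in 8.81%. The median log2 fold change (Tn over WT) was -0.32 over the members and 0.01 over all genes tested.

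**Figure D1:**
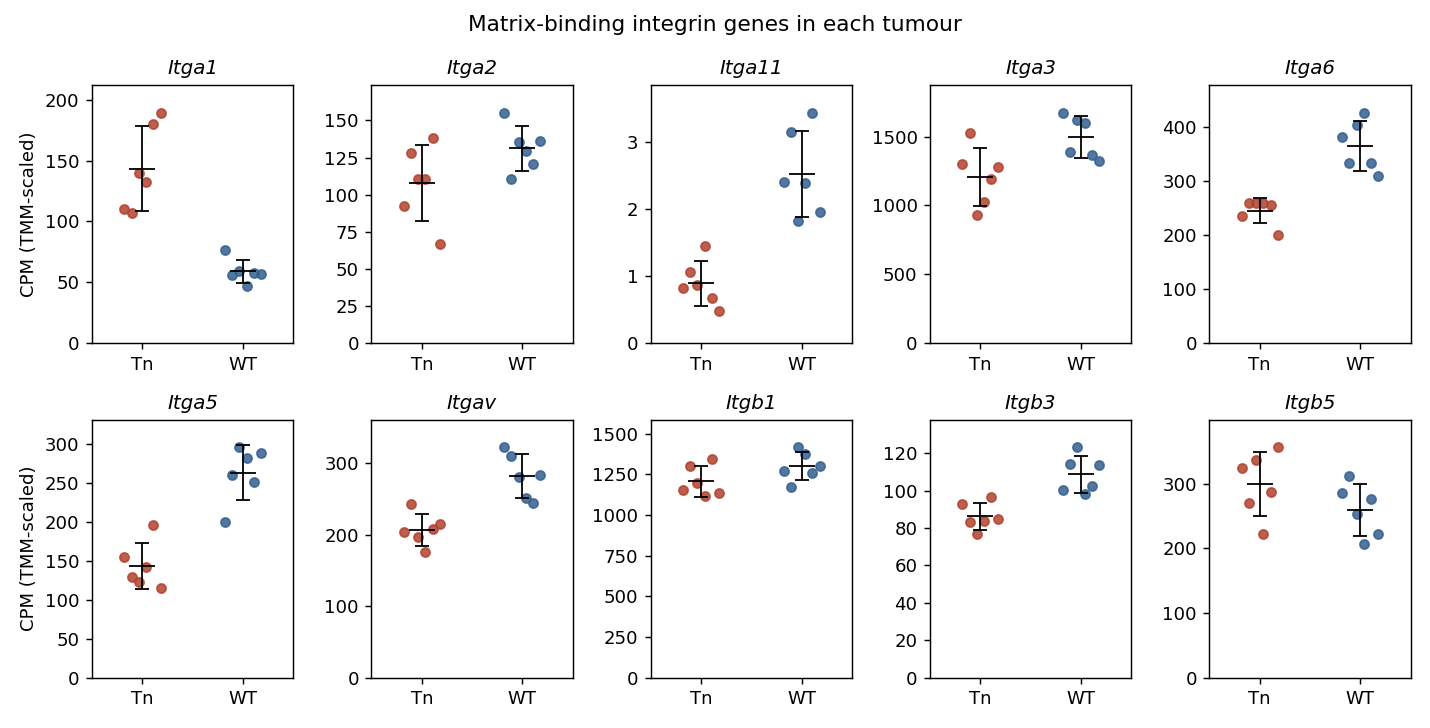
Level of each of the 10 integrin genes in CPM (TMM-scaled, linear axes from 0), 6 Tn tumours left and 6 WT tumours right in each panel. Points are tumours and bars are the mean ± SD. Itga1 is higher in all 6 Tn tumours, the 5 genes that fell (Itga11, Itga6, Itga5, Itgav, Itgb3) are lower in all 6, and the other 4 panels overlap.

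The collagen receptor chains among the members moved in different directions. Itga1 encodes alpha 1, a receptor of collagen IV and other collagens found on smooth muscle, endothelium, fibroblasts and activated lymphocytes. The gene (ENSMUSG00000042284) lies at GRCm39 chromosome 13, 115089632 to 115238500. Its level had a lowest value of 107 CPM, a median of 136 CPM and a highest of 189.7 CPM in Tn tumours, and 47.2, 57 and 76.6 CPM in WT tumours. Every Tn tumour was above every WT tumour, with Tn tumours 5 and 6 highest at 180.6 and 189.7 CPM and WT tumour 1 the highest WT tumour. The rise amounted to 2.44-fold, or 1.29 ± 0.16 (SE) on the log2 scale, with an edgeR adjusted p of 0.000129. All 8 T cell markers rose in the same tumours. Of 8 markers each, 7 endothelial, 7 fibroblast and 6 pericyte and smooth muscle markers fell, and 1 fibroblast marker rose. After group means were removed, Itga1 had a Pearson r of -0.48 with the T cell marker sum over the 12 tumours. The r was -0.31 with the endothelial, 0.05 with the fibroblast and -0.10 with the pericyte and smooth muscle sum. The part of these cells in the result was not tested. Of the exon bases of Itga1, 3.68% lie under a second gene on the same strand, and no other collagen receptor gene among the members has such an overlap.

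Itga2 encodes alpha 2, the collagen receptor of epithelium and platelets (ENSMUSG00000015533, chromosome 13, 114969617 to 115068636). Tn tumours ranged from 66.9 to 138 CPM around a median of 111 CPM, and WT tumours from 111 to 155 CPM around a median of 132 CPM. The ranges overlapped, with 2 Tn tumours below all WT tumours. The log2 fold change of -0.28 ± 0.15 did not pass the test (edgeR adjusted p = 0.154). Itga1 and Itga2 are thus neighbours of which 1 was called.

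Itga11 encodes alpha 11, a receptor of fibrillar collagen that marks fibroblasts (ENSMUSG00000032243, chromosome 9, 62585108 to 62691264). It was the scarcest member, with 64 to 202 raw counts per Tn tumour and 246 to 397 per WT tumour. In Tn tumours its lowest, median and highest levels were 0.475, 0.840 and 1.46 CPM, and in WT tumours 1.83, 2.39 and 3.45 CPM. No Tn tumour reached the lowest WT tumour. Itga11 fell to 35.3% of the WT level (log2 fold change -1.50 ± 0.27, edgeR adjusted p = 0.00116). Of 8 fibroblast markers 7 fell beside it, among them Lum at -1.65 and Fap at -1.20 on the log2 scale, while Pdgfra rose by 1.03. After group means were removed, Itga11 had a Pearson r of -0.06 with the fibroblast marker sum over the 12 tumours. With the sum of the T cell markers, which rose in Tn tumours, r was 0.84. The part of cell composition in the result was not tested.

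Both laminin-binding alpha chains were lower in Tn than in WT tumours by mean, and 1 passed the test. Itga6 encodes alpha 6, which pairs with beta 1 or with beta 4, the subunit of hemidesmosomes (ENSMUSG00000027111, chromosome 2, 71575960 to 71688760). Tn tumours held 200.5 CPM at the lowest, 257 CPM at the median and 259 CPM at the highest, against 309, 358 and 426 CPM in WT tumours. The Tn values lay close together except for Tn tumour 6, the lowest, and the groups did not overlap. Itga6 fell to 67% of the WT level (log2 fold change -0.58 ± 0.09, edgeR adjusted p = 0.000679).

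Itga3 encodes alpha 3, a receptor of the laminins of epithelial basement membranes (ENSMUSG00000001507, chromosome 11, 94935300 to 94967627). It had the highest level per length of all the alpha chains. Values in Tn tumours ran from 931 to 1525 CPM with a median of 1233 CPM, and in WT tumours from 1323 to 1674 CPM with a median of 1491 CPM. Tn tumour 2 alone reached into the WT range, and 5 Tn tumours lay below it. The difference of -0.31 ± 0.12 on the log2 scale just missed the threshold (edgeR adjusted p = 0.0536), and it passed in 5 of 20 alternative settings.

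The 2 RGD-binding alpha chains both fell. Itga5 encodes alpha 5, the main fibronectin receptor chain, which is needed for vessel formation in mice (ENSMUSG00000000555, chromosome 15, 103252713 to 103275190). It stood at 115, 136 and 196 CPM (lowest, median, highest) in Tn tumours and at 199.9, 271 and 296 CPM in WT tumours. The groups came close, at Tn tumour 5 and WT tumour 1, without overlap. Itga5 fell to 54.6% of the WT level (log2 fold change -0.87 ± 0.13, edgeR adjusted p = 0.00047). Of 8 endothelial markers 7 fell beside it. Kdr was at -1.14 and Emcn at -0.82 on the log2 scale, and the defining markers Pecam1 and Cdh5 were at -0.28, not past the test, and -0.74. After group means were removed, Itga5 had a Pearson r of 0.85 with the endothelial marker sum over the 12 tumours. The r was 0.76 with the pericyte and smooth muscle sum and -0.03 with the fibroblast sum. The part of cell composition in the result was not tested. Itga5 was lower in Tn tumours while Fn1, which encodes its ligand fibronectin, rose by 0.76 ± 0.25 on the log2 scale (edgeR adjusted p = 0.0304).

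Itgav encodes alpha v, which pairs with several beta chains and can activate latent TGF-beta (ENSMUSG00000027087, chromosome 2, 83554741 to 83637260). Its lowest, median and highest levels were 176, 206 and 243 CPM in Tn tumours and 245, 282 and 323 CPM in WT tumours. The highest Tn tumour thus lay just under the lowest WT tumour. Itgav fell to 73.4% of the WT level (log2 fold change -0.45 ± 0.09, edgeR adjusted p = 0.00244). An opposite-strand gene covers 5.9% of its exon bases, and counting did not use strand.

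Of the beta chains, Itgb3 fell and the other 2 did not pass the test. Itgb1, the common partner, had the highest level per length of all members (ENSMUSG00000025809, chromosome 8, 129412135 to 129459681). Tn tumours held 1117 to 1347 CPM with a median of 1173 CPM, and WT tumours 1173 to 1417 CPM with a median of 1287 CPM. The ranges overlapped, and the difference of -0.11 ± 0.07 on the log2 scale did not pass (edgeR adjusted p = 0.255). Itgb1 also varied least within groups, with a coefficient of variation of 7.84% in Tn tumours and 6.74% in WT tumours.

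Itgb3 encodes beta 3, partner of alpha v on vessels and osteoclasts and of alpha IIb on platelets (ENSMUSG00000020689, chromosome 11, 104498826 to 104561302). The lowest, median and highest values were 76.7, 84.2 and 96.7 CPM in Tn tumours and 98.3, 108 and 123 CPM in WT tumours. The groups came close without overlap. The fall to 79.4% of the WT level was the smallest among the members called (log2 fold change -0.33 ± 0.07, edgeR adjusted p = 0.00424). Itgb5 encodes beta 5, which with alpha v binds vitronectin (ENSMUSG00000022817, chromosome 16, 33650035 to 33769708). It ran from 222 to 356 CPM in Tn tumours and from 207 to 312 CPM in WT tumours, with a median of 306 CPM in Tn tumours and 265 CPM in WT tumours. Its log2 fold change of 0.21 ± 0.13 did not pass the test (edgeR adjusted p = 0.219).

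**Figure D2:**
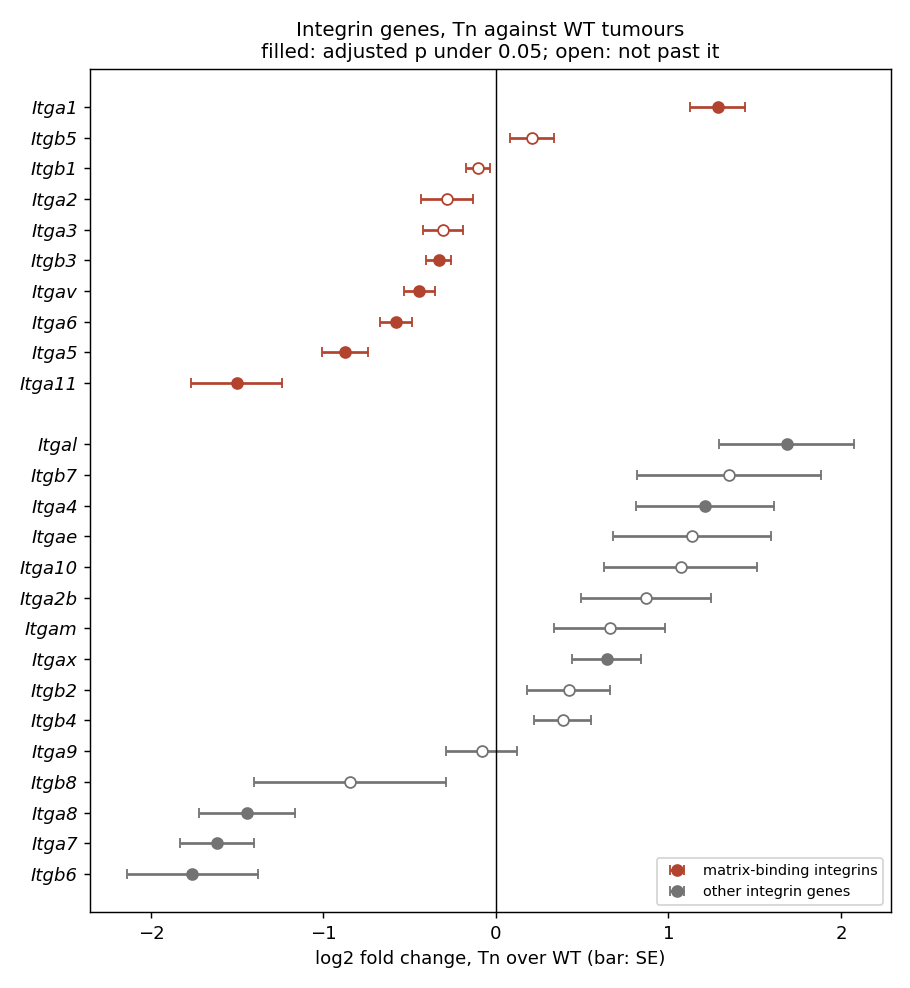
Log2 fold change, Tn over WT, of the 10 members (red) and of 15 other integrin genes tested (grey), with bars of ± SE and n = 6 tumours per group. Filled points passed an adjusted p of 0.05. Itga1 at 1.29 and Itga11 at -1.50 are the ends of the member range, and Itgb1 lies near 0.

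Levels were compared between genes as CPM per kilobase of exon length. In Tn tumours the order of mean levels was Itgb1 (296), Itga3 (212), Itgb5 (84.3), Itga5 (29.1), Itga6 (26.7), Itgav (19.3), Itga2 (15.1), Itgb3 (14.6), Itga1 (7.71) and Itga11 (0.174 CPM per kilobase). In WT tumours it was Itgb1 (319), Itga3 (262), Itgb5 (73.1), Itga5 (53.3), Itga6 (39.9), Itgav (26.3), Itgb3 (18.4), Itga2 (18.4), Itga1 (3.16) and Itga11 (0.493 CPM per kilobase). The order was the same apart from Itga2 and Itgb3, whose ranges overlapped in both groups. Among Tn tumours the ranges also overlapped between Itga5 and Itga6, Itga6 and Itgav, Itgav and Itga2, Itgav and Itgb3, and Itga2 and Itga1. Among WT tumours they overlapped between Itgb1 and Itga3, Itgb5 and Itga5, and Itga5 and Itga6. These levels use the total exon length of each gene and not the length of the transcripts in use.

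The 7 alpha chains summed to 309.7 ± 39.0 CPM per kilobase in Tn tumours and 403 ± 32.0 CPM per kilobase in WT tumours (SD, n = 6 each). Itga3 made up 68.0% of that sum in Tn tumours and 64.8% in WT tumours. The share of Itga5 was 9.47% in Tn tumours and 13.3% in WT tumours, and that of Itga1 was 2.53% in Tn tumours and 0.786% in WT tumours. Itga6 held 8.76% in Tn tumours and 9.87% in WT tumours, Itgav 6.26% in Tn tumours and 6.54% in WT tumours, and Itga2 4.92% in Tn tumours and 4.57% in WT tumours. Itga11 stayed under 1% of the sum, with 0.0573% in Tn tumours and 0.124% in WT tumours.

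Alpha and beta chains reach the surface as pairs, so messages of partners were compared within each tumour as ratios of counts per exon base, which need no scaling between tumours. Each of 9 ratios was tested as log2 of counts plus 1 with the exact permutation test (two-sided, all 924 assignments), adjusted over the 9, and 6 passed the threshold. The smallest p that such a test can give is 0.00216. The ratios use the same counts as the edgeR calls. Itgb1 was at only -0.11 on the log2 scale, so ratios to it largely restate the calls of the alpha chains. Itga1 over Itgb1 ran from 0.0181 to 0.0366 in Tn tumours and from 0.00752 to 0.0132 in WT tumours, a log2 difference of 1.37 (exact permutation, adjusted p = 0.00649). All Tn tumours were above all WT tumours in that ratio.

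In 2 ratios, Itga5 and Itga6 over Itgb1, all Tn tumours were below all WT tumours. Itga5 over Itgb1 was 0.0823 to 0.120 in Tn tumours and 0.130 to 0.184 in WT tumours, a log2 difference of -0.78 (exact permutation, adjusted p = 0.00649). Itga6 over Itgb1 was 0.0786 to 0.103 in Tn tumours and 0.106 to 0.138 in WT tumours, a log2 difference of -0.47 (exact permutation, adjusted p = 0.00649). Itga11 over Itgb1 differed by -1.44 (exact permutation, adjusted p = 0.00779) and Itgav over Itgb1 by -0.34 (exact permutation, adjusted p = 0.00974), both with ranges that overlapped at the edge. These 4 alpha chains were thus lower relative to Itgb1 in Tn than in WT tumours.

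Of the ratios of 2 beta chains to Itgav, 1 passed the threshold, and the 2 beta chains were not compared with each other. As single genes in the edgeR test, Itgav was at -0.45 on the log2 scale and Itgb5 at 0.21, which did not pass. Itgb5 over Itgav was 3.35 to 5.18 in Tn tumours and 2.37 to 3.41 in WT tumours, a log2 difference of 0.65 (exact permutation, adjusted p = 0.00779). Itgb3 over Itgav was 0.624 to 0.869 in Tn tumours and 0.567 to 0.798 in WT tumours, and its log2 difference of 0.11 did not pass (exact permutation, adjusted p = 0.303). Neither did Itga2 over Itgb1 at -0.21 (exact permutation, adjusted p = 0.212) and Itga3 over Itgb1 at -0.21 (exact permutation, adjusted p = 0.106).

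**Figure D3:**
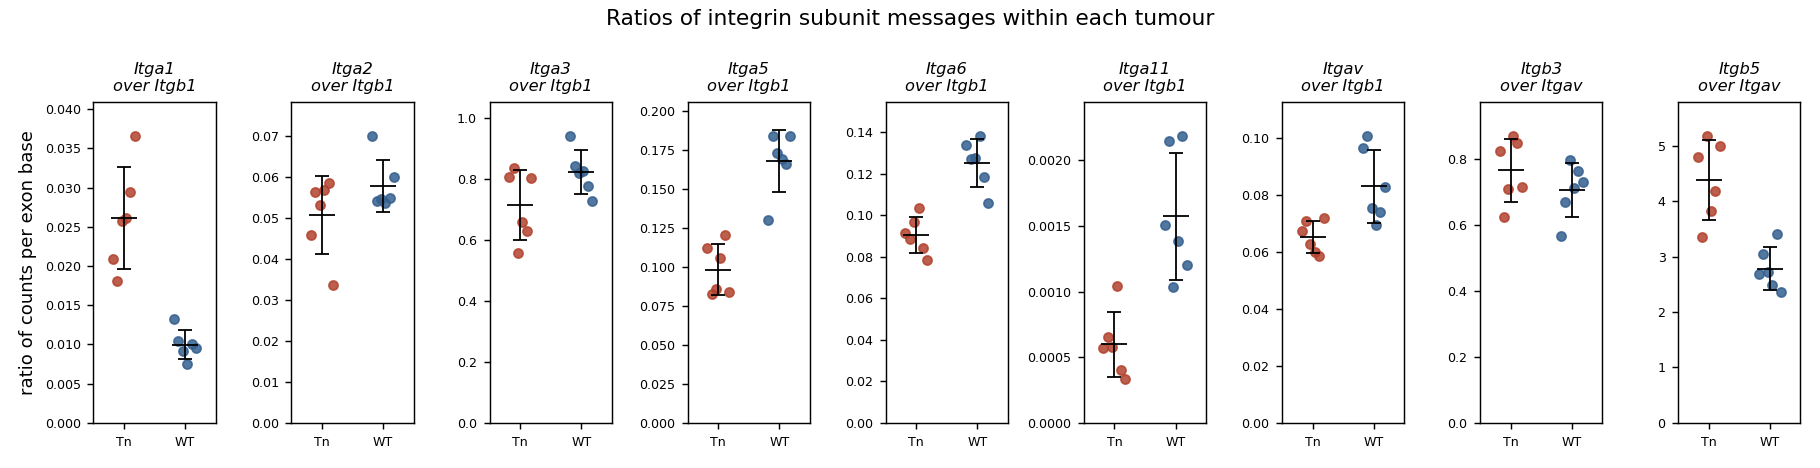
Ratios of integrin messages, as counts per exon base, in each tumour (linear axes from 0), Tn left and WT right. Points are tumours and bars are the mean ± SD. Itga1 over Itgb1 is higher in all 6 Tn tumours, Itga5 and Itga6 over Itgb1 are lower in all 6, and Itgb5 over Itgav is higher by a log2 difference of 0.65.

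Within groups the members did not share 1 pattern. After each group mean of log2 CPM was removed, Itga5 and Itgb3 were the members most alike over the 12 tumours (Pearson r 0.70), and Itga1 and Itga11 the most opposed (r -0.50), as a description with no test. By the same measure, among 14001 genes, the closest to Itga5 were Pcdh12 (0.944) and Emcn (0.941), which encode a protocadherin and a sialomucin of endothelium. The closest to Itgb5 were Arnt (0.938) and Pdgfra (0.933), and the closest to Itga1 were Polr2a (0.955) and Ddx42 (0.944). The 12 tumours share a batch label and the same 6 to 6 split, and such values are the highest of many.

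The other integrin genes numbered 16, of which 15 were tested. Among 8 that bind matrix or belong to epithelium, Itga7, Itga8 and Itgb6 fell and Itga4 rose. Over all genes tested 17.4% fell and 19.5% rose. Itga7 encodes the laminin receptor of muscle and stood at 9.76 ± 3.28 CPM in Tn tumours and 30 ± 4.72 CPM in WT tumours (SD, n = 6 each), which is -1.62 on the log2 scale. Itga8, a nephronectin and fibronectin receptor of mesenchyme, changed by -1.44, and Itgb6, an epithelial partner of alpha v, by -1.76 on the log2 scale (edgeR adjusted p of 0.00192 and 0.00362). Itgb6 was scarce, at 0.858 ± 0.404 CPM in Tn tumours and 2.91 ± 1.26 CPM in WT tumours, and its ranges overlapped. Itgb4, the hemidesmosome partner of alpha 6, was at 518 ± 59.7 CPM in Tn tumours and 397 ± 105 CPM in WT tumours. It did not pass the test (log2 fold change 0.39, edgeR adjusted p = 0.0851), but passed without WT tumour 3 (edgeR adjusted p = 0.0428). Itga10 was at 1.07 ± 0.45 on the log2 scale and did not pass (edgeR adjusted p = 0.0775), but passed in 3 alternatives. A same-strand gene covers 33.5% of its exon bases.

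Of 7 leukocyte and platelet integrins tested, 2 rose and none fell, against 19.5% and 17.4% of all genes tested. All 7 had a positive log2 fold change. Itgal, the alpha chain of LFA-1 on lymphocytes, was at 80.6 ± 40.3 CPM in Tn tumours and 25.1 ± 10.5 CPM in WT tumours (SD, n = 6 each; log2 fold change 1.69, edgeR adjusted p = 0.00558). Itgax, the CD11c chain of dendritic cells and macrophages, rose by 0.64 on the log2 scale (edgeR adjusted p = 0.0238). All 8 T cell and 5 of 8 macrophage markers rose in the same tumours, and their part in these results was not tested. The call of Itga4, the VCAM-1 receptor chain of lymphocytes, rested on its settings: its log2 fold change of 1.21 (edgeR adjusted p = 0.0318) missed the threshold in 9 of 20 alternatives. An opposite-strand gene covers 8.04% of its exon bases.

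The matrix ligands of these receptors were lower in Tn tumours across most of 3 lists. Of 10 collagen genes 9 fell and none rose, while 17.4% of all genes tested fell and 19.5% rose. The median log2 fold change of the collagen genes was -1.51, against 0.01 over all genes tested. Col3a1, of fibrillar collagen III, was at 853 ± 126 CPM in Tn tumours and 3462 ± 1239.7 CPM in WT tumours (SD, n = 6 each; log2 fold change -2.02, edgeR adjusted p = 7.75e-05). Col1a1, Col1a2 and Col5a2 fell by 1.84, 1.87 and 1.75 on the log2 scale, and Col6a1 was at -0.07. Itga1, a collagen receptor chain, thus rose in tumours where collagen messages fell.

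Of 10 laminin chains 7 fell (17.4% of all genes tested) and none rose (19.5%), with a median of -1.11 on the log2 scale. Lama1 and Lama2 fell by 2.11 and 1.70, Lama4 of vessels by 1.03 and Lamb2 by 0.44. Lama3 and Lamb3, which encode chains of an epithelial laminin that alpha 3 and alpha 6 bind, were also lower, at -1.31 and -1.57 (edgeR adjusted p of 0.0388 and 0.0161), while Lama5, Lamb1 and Lamc1 did not pass the test.

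Of 15 ligands of the RGD-binding and related receptors 9 fell and 1, Fn1, rose, with a median of -1.11. The shares over all genes tested were 17.4% and 19.5%. Tnc, which encodes tenascin-C, was at 407 ± 127 CPM in Tn tumours and 2034 ± 209 CPM in WT tumours (SD, n = 6 each; log2 fold change -2.32, edgeR adjusted p = 8.28e-06). Thbs2, Fbn1 and Postn, which encode thrombospondin 2, fibrillin 1 and periostin, fell by 1.58, 1.95 and 1.44 on the log2 scale. An opposite-strand gene covers 20.1% of the exon bases of Fbn1. Spp1, the osteopontin gene, was at 0.56 (edgeR adjusted p = 0.0996) and did not pass. The fibroblast and pericyte marker sums given above moved in the same direction as the ligands, and their part in the result was not tested.

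**Figure D4:**
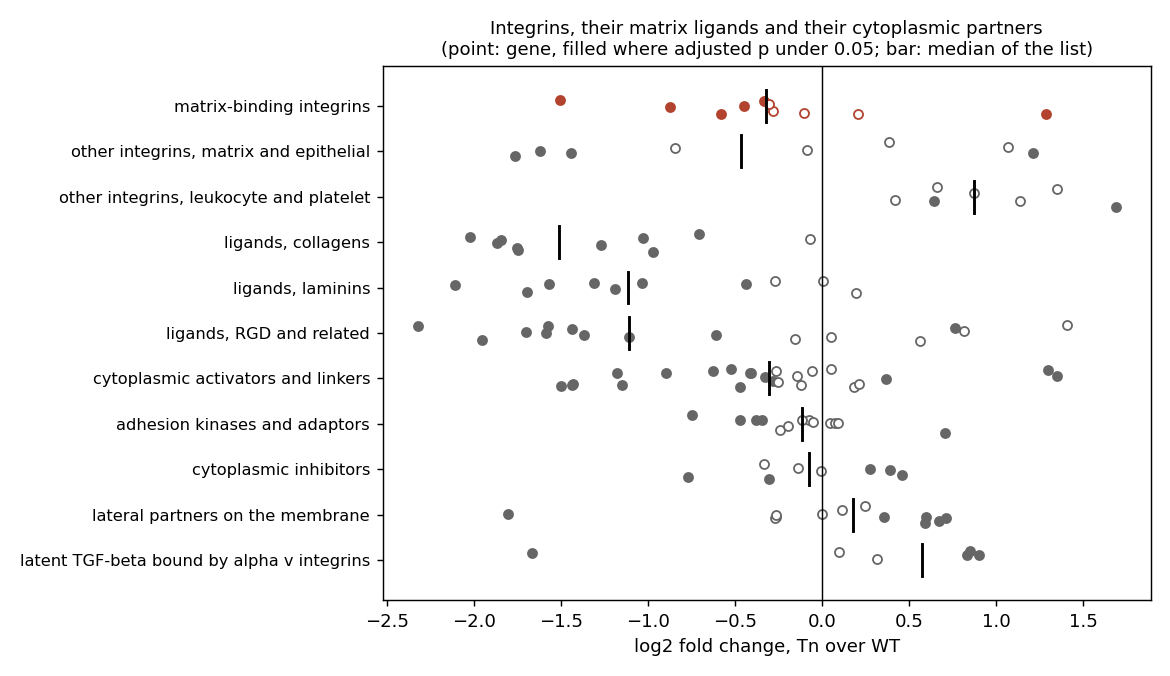
Log2 fold change, Tn over WT, of the integrin members (red) and of other integrins, ligands and partners (grey). Each point is a gene, filled where it passed an adjusted p of 0.05, and each bar is the list median. The collagen, laminin and RGD ligand medians lie at -1.51, -1.11 and -1.11, below the member median of -0.32.

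Inside the cell, talins and kindlins switch integrins on and linkers tie them to actin. Of 24 such genes 13 fell and 3 rose, against 17.4% and 19.5% of all genes tested. Lims1 and Parva, which encode PINCH1 and alpha-parvin of the complex that holds integrin-linked kinase, fell by 0.63 and 0.52 on the log2 scale (edgeR adjusted p of 5.9e-05 and 0.000296). Tln2, for talin 2, fell by 1.18, while Tln1, for talin 1, was at -0.12 and did not pass. Those that rose were Fermt3 (1.30) and Parvg (1.35), both of blood cells, and Rap1a (0.37). For Ilk, integrin-linked kinase, 89.7% of exon bases lie under 2 opposite-strand genes, so its value of -1.43 is uncertain.

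Among 13 adhesion kinases and adaptors, 4 fell and 1 rose, against 17.4% and 19.5% of all genes tested. Ptk2, which encodes focal adhesion kinase, was at 135 ± 22.5 CPM in Tn tumours and 226 ± 33.3 CPM in WT tumours (SD, n = 6 each; log2 fold change -0.75, edgeR adjusted p = 0.000904). Crk and Arhgef7 fell by 0.34 and 0.47, and Nedd9, a scaffold of the p130Cas family, rose by 0.71 on the log2 scale. Src and Bcar1 did not pass the test.

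A list of 8 genes held cytoplasmic inhibitors of integrins and proteins linked to them or to talin, and not all of these hold integrins inactive. Of the 8, 3 rose and 2 fell, against 19.5% and 17.4% of all genes tested. Sharpin, which binds alpha tails, rose by 0.46 on the log2 scale (edgeR adjusted p = 0.00145), Itgb1bp1 by 0.27 and Dok1 by 0.39. Flna, for filamin A, which competes with talin for beta tails, fell to 834 ± 103 CPM in Tn tumours, against 1422 ± 209.7 CPM in WT tumours (SD, n = 6 each; edgeR adjusted p = 0.00032). Ppfia1, the other gene that fell, was at -0.30 on the log2 scale, and Krit1, Kank1 and Kank2 did not pass the test. Dok1 missed the threshold in 3 of 20 alternatives. Other genes cover 16.9% of the exon bases of Itgb1bp1.

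Of 12 membrane partners 5 rose and 1 fell, against 19.5% and 17.4% of all genes tested. The tetraspanin genes Cd9 and Cd82 rose by 0.67 and 0.60 and the proteoglycan gene Sdc4, for syndecan 4, by 0.59 on the log2 scale (edgeR adjusted p of 0.00252, 0.0058 and 0.00135). Cd151, for the tetraspanin that binds alpha 3 and alpha 6 most tightly, was at 0.00 ± 0.12 (edgeR adjusted p = 0.992). Cspg4, for the NG2 proteoglycan of pericytes, fell by 1.80, beside 6 of 8 pericyte and smooth muscle markers that fell.

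Among 6 genes of latent TGF-beta, which alpha v integrins pull open, 3 rose and 1 fell (19.5% and 17.4% of all genes tested). Ltbp1, for a protein that ties latent TGF-beta to matrix, was at 477 ± 59.7 CPM in Tn tumours and 255 ± 33.0 CPM in WT tumours (SD, n = 6 each; log2 fold change 0.90, edgeR adjusted p = 0.000102). Ltbp3, of the same family, and Nrros, for an anchor on myeloid cells, rose by 0.85 and 0.83 on the log2 scale. Lrrc32, for the GARP anchor of regulatory T cells, platelets and endothelium, fell by 1.67, and Tgfb1 at 0.10 and Tgfb3 at 0.32 did not pass the test.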

How the data were processed

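Per the labels, poly(A) RNA of tumour tissue with an RNA integrity number above 7 was made into stranded libraries and sequenced as read pairs in 1 batch. Per the submitters' processing notes, FastQC, fastp 0.23, STAR 2.7.11a, featureCounts of Subread 2.1.1 and GRCm39 were used. Per the file headers, exon reads were summed per Ensembl gene into unnormalized counts, without strand, with both ends mapped, and with no option that counts a pair once or keeps reads over several genes. Of counts between 1 and 20, 66.4% to 72.5% were even, since both mates of a pair usually count. Gene lengths are those of the deposited table. Symbols from a later annotation of GRCm39 matched 56630 of 57186 identifiers.

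The counts were tested with edgeR 4.0.16 in R 4.3.3 (TMM factors, filterByExpr with the groups, a robust quasi-likelihood test, two-sided, Benjamini-Hochberg adjustment over 19255 genes, threshold 0.05), after a check on simulated counts. The SE is the log2 fold change over the root of the F statistic. The biological coefficient of variation was 0.358. Alternatives were DESeq2 1.42.0, voom of limma 3.58.1 with quality weights, RLE or upper-quartile factors, no filter, a mean of at least 1 CPM, a block for replicate number, leaving out each tumour, and leaving out 3 tumours together (Tn tumours 4 and 6, WT tumour 6). These 3 tumours held the highest marker sums for B cells, keratinocytes and adipocytes, in that order. The ratios were also computed with 10 added to each count.

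The members and lists were chosen with earlier results of these data known. Genes named are the members, C1galt1c1, other integrins, up to 4 genes per list with the smallest p, and for each member the 2 genes most like it among genes with a mean of at least 1 CPM. Others were chosen after their values were seen. Library numbers are lower for every Tn than for every WT tumour, and an effect of that order cannot be told apart from the group. Some results that the rule would name are not reported here.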

Additional observations from a re-analysis of the deposited data

How the results depend on the processing

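Under all 20 alternatives Itga1 stayed risen and Itga11, Itga5, Itga6, Itgav and Itgb3 stayed fallen, so that 1 member rose and 5 or 6 fell. The sixth was Itga3, which passed with upper-quartile scaling (adjusted p = 0.0245), voom with quality weights (0.0334) and a mean of at least 1 CPM (0.0235). Itga3 also passed without Tn tumour 2 (0.0197) or WT tumour 6 (just under the threshold, 0.05 when rounded). Of the 9 ratios 6 passed in every setting but the removal of 3 tumours, where 5 did and Itgav over Itgb1 had an exact permutation adjusted p of 0.0714. Over all genes, falls outnumbered rises with upper-quartile scaling (3844 against 3094), unlike with TMM scaling (3342 against 3752). Itga9, not called in any setting, changed sign to 0.0065 with voom, 0.093 without 3 tumours, 0.027 without Tn tumour 6 and 0.034 without WT tumour 2, with a range of -0.238 to 0.034 over the removals of 1 tumour. Itgax missed the threshold without WT tumour 4 (edgeR adjusted p = 0.0508). Other integrins not called in the main test passed as rises in some alternatives. These were Itga10 and Itgb7 in 3 each, Itgae in 2, and Itgam and Itgb4 in 1 each.

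With the replicate number as a block, 2998 genes rose and 2878 fell, 5 members fell, 1 rose and 6 ratios passed. The numbers do not pair the tumours: deviations of same-numbered tumours correlated between -0.125 and 0.158, and 1 of 6 tumours was most like its own number. Depth limits Itga11 most, with 64 to 397 counts per tumour. The other members had at least 6609.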
